A study of Mus musculus with 6 samples.

Results

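The 10 genes described here encode enzymes that make or remove ADP-ribose, the molecule that opens the TRPM2 channel. They were chosen by name from the 54532 genes of the deposited tables. Parp1 and Parp2 stand for synthesis of poly(ADP-ribose), grouped with Parp3, which adds single ADP-ribose units. Parg and Adprhl2 stand for breakdown of poly(ADP-ribose), Cd38, Bst1 and Sarm1 for cleavage of NAD, and Nudt9 and Nudt5 for hydrolysis of ADP-ribose. RNA-sequencing was performed on kidney tissue of 3 WT and 3 Trpm2-/- mice, all labelled as strain C57BL/6J and aged 6-8 weeks. All were given cisplatin, a platinum drug that damages DNA and injures the kidney tubule, at 18 mg/kg for 72 h. No untreated kidney was analysed here, so every comparison is between genotypes under cisplatin. By the methods, the Trpm2-/- allele lacks a pair of exons in every cell of the body, and the WT mice were bought from a supplier while the Trpm2-/- line came from another institution. Littermates are not described, so genotype and origin of the mice cannot be told apart. The methods also give an age for cisplatin-treated mice that is older than the labelled one.

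TRPM2 is a cation channel that passes calcium and opens when ADP-ribose binds inside the cell. One known route to ADP-ribose starts at DNA breaks, where poly(ADP-ribose) polymerases (PARPs) use NAD to build chains on proteins, and glycohydrolases then release the ADP-ribose units. A separate route is direct cleavage of NAD by glycohydrolases such as CD38. Nudix hydrolases end the signal by splitting ADP-ribose into AMP and ribose 5-phosphate.

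No member passed the test between genotypes, and 8 of the 9 that could be tested had intervals within a 2-fold difference. Of the 10 members, 9 had enough reads to be tested, and 0 of 9 had an adjusted p under 0.05 (edgeR's quasi-likelihood test on counts with Benjamini-Hochberg adjustment over 15816 genes), beside 12.0% of all genes tested. At an unadjusted p under 0.05, 1 of 9 passed, Parp3, beside 28.3% of all genes. DESeq2 and limma-voom also called 0 of 9 at an adjusted p under 0.05, and Parp3 alone at an unadjusted p under 0.05. None met the threshold of the methods, an absolute log2 fold change above 1 with p under 0.05, which 7.60% of all genes met. The median absolute log2 fold change of the 9 members was 0.18, against 0.31 over all genes. For 8 of 9 members the 95% interval of the log2 fold change lay within 1 of 0 on either side, and across these 8 the bounds ran from 0.569-fold to 1.65-fold. Of all genes tested, 59.4% had an interval within 1 of 0 on either side on the log2 scale. Cd38 was the exception, with an interval that reached 1.83 on the log2 scale.

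The sequences upstream of 2 members are shown, Parp1 as the main polymerase at DNA breaks and Parp3 as the member with the smallest p. Each run is the 250 bases before the transcription start in the RefSeq table for GRCm38.p6, 5′ to 3′ on the gene's own strand, at chr1:180568641-180568890 on the plus strand for Parp1 and chr9:106476950-106477199 on the minus strand for Parp3. No annotated exon of GENCODE lies in either. Capitals mark matches, on either strand, to the GC box letters GGGCGG or to CCAAT.
Parp1: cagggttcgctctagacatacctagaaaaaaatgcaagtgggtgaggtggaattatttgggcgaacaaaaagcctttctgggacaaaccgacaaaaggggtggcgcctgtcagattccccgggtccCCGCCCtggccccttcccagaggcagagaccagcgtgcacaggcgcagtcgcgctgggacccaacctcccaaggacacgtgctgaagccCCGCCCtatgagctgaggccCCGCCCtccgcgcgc
Parp3: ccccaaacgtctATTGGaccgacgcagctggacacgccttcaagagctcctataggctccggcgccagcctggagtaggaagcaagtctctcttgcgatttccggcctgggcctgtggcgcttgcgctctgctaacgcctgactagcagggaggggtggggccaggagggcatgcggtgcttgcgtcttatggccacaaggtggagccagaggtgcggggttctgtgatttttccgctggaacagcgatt
Parp1 held 3 GC box matches here and no CCAAT match, and Parp3 held 1 CCAAT match, read on the opposite strand as ATTGG, and no GC box match. The letters TATAAA were absent from both. Over windows of 300 bases, from 250 before to 50 after a start, GGGCGG or its reverse occurred in 35.7% of 32851 promoters in the table, CCAAT in 37.4% and TATAAA in 13.6%. Promoter windows were matched for 9 of 10 members, all but Bst1. Cd38 held 1 CpG dinucleotide in its window, whereas those of the other 8 members held 15 to 33, and the median of all promoters was 7 (interquartile range 3 to 20). The Cd38 window lies inside the GENCODE gene and its 250 bases before the RefSeq start hold a Cd38 exon. The same bases of Nudt5, Nudt9, Parp2 and a Parg window also hold exons of the gene itself. These matches are counts of letters and show no binding.

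Library depth, the targeted gene and tissue markers were examined for all libraries. Total counts on genes were 14053307 to 17150089 per library. CPM is the unit for counts scaled to a common library size. On these totals a count of 3 equals 0.175 to 0.213 CPM, a floor that covers counting error only. The CPM values of genes use TMM-normalized library sizes instead. On that scale 3 counts of Sarm1 were 0.193 CPM in WT replicate 2 and 0.205 CPM in Trpm2-/- replicate 2. Trpm2 itself had 5, 5 and 27 counts in WT libraries and 10, 16 and 20 in Trpm2-/- libraries (log2 fold change 0.36, standard error (SE) of 0.675, adjusted p = 0.776, edgeR). That fold change was -0.02 without WT replicate 1, -0.01 without WT replicate 2 and 1.61 without WT replicate 3. Since the count covers exons kept in the allele, it does not check the labels. Markers were called at an adjusted p under 0.05 in edgeR's test, beside 7.28% of all genes tested called lower and 4.74% higher. All 7 proximal tubule markers, led by Slc34a1, Aqp1 and Lrp2, were lower in Trpm2-/- kidneys. They summed to 2388 to 3233 CPM in WT and 627 to 1007 CPM in Trpm2-/-. The count called lower was 6 without WT replicate 1, and 5 without WT replicate 2 or 3 or Trpm2-/- replicate 4. Lrp2 was not among these 5. Of the other tubule markers 2 of 7 were lower (1 without WT replicate 1 or 3 or Trpm2-/- replicate 1 or 2). Of 5 markers of tubular injury 2 were higher (1 without WT replicate 2 or Trpm2-/- replicate 1, 0 without WT replicate 3). The share of counts on the mitochondrial genome was 4.43% to 4.72% in WT and 7.91%, 7.95% and 11.0% in Trpm2-/- libraries. Trpm2-/- replicate 4 stood apart in glomerular and vascular markers. Podocyte markers summed to 385 CPM in it and to 95.1 to 136 CPM in the other 5 libraries, and endothelial markers to 177 CPM against 44.4 to 99.1 CPM. Of 4 podocyte markers 0 were called, and of 6 endothelial markers 0. Without Trpm2-/- replicate 2, 1 podocyte marker was called higher. Without Trpm2-/- replicate 4, 3 endothelial markers were called lower. In RNA of kidney tissue, fewer cells of a type and less RNA per cell cannot be told apart. The methods name kidney tissues without the part taken, so a difference in the piece sampled cannot be told apart either. The part of these shifts in the members' values was not tested.

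**Figure D1:**
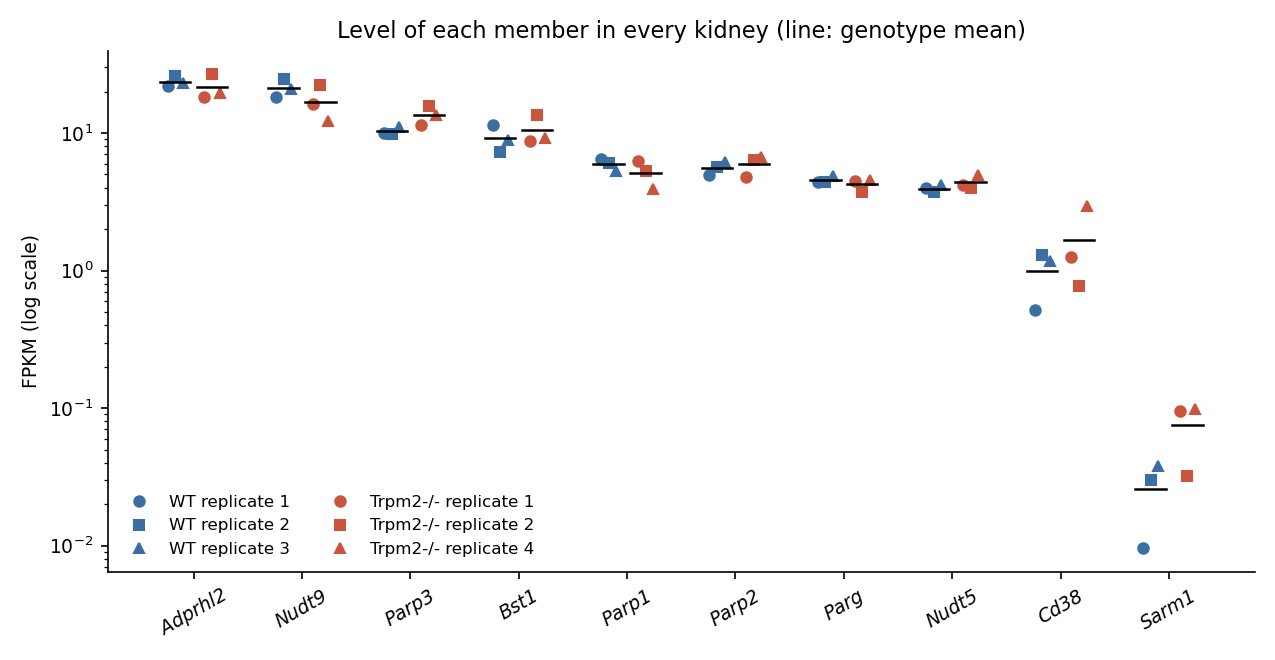
Deposited FPKM of the 10 members on a log axis, 1 point per mouse (blue WT, red Trpm2-/-, the shape giving the replicate) and a line at each genotype's mean. Adprhl2 and Nudt9 are at the top, and Cd38 and Sarm1 are at the bottom in both genotypes.

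Levels between genes were compared as FPKM, the authors' values scaled to gene length in kilobases and to library size. The length used joins the exons of all transcripts of a gene, whichever were expressed. It was 2475 bases for Adprhl2, 2392 for Nudt9, 5778 for Parg and 6484 for Nudt5. The order between genes depends on these lengths, and for Nudt9 and Nudt5 also on the shared exon bases described below. In WT kidneys Adprhl2 had the highest level of the 10 members, 23.7 ± 2.11 FPKM (SD, n = 3), followed by Nudt9 with 21.2 ± 3.15 FPKM. Parp3 with 10.3 ± 0.727 and Bst1 with 9.21 ± 2.09 FPKM came next. The ranges of each of these pairs overlapped between mice, although Adprhl2 was above Nudt9 within each WT mouse, whereas the ranges of Nudt9 and Parp3, and of Bst1 and Parp1, did not overlap. Parp1, which makes most poly(ADP-ribose) in mammalian cells, was at 5.94 ± 0.618 FPKM and Parp2 at 5.59 ± 0.571 FPKM, also overlapping. Below them Parg (4.53 ± 0.269 FPKM), Nudt5 (3.94 ± 0.227 FPKM), Cd38 (0.999 ± 0.424 FPKM) and Sarm1 (0.0259 ± 0.0146 FPKM) did not overlap with each other or with Parp2. Among all tested genes, Adprhl2 lay at the 85.9th percentile of WT levels, Parp1 at the 59.8th, Parg at the 53.3rd and Cd38 at the 23.8th. Within the enzymes of poly(ADP-ribose) breakdown and of ADP-ribose hydrolysis, 1 member of each pair (Adprhl2, Nudt9) was thus at the top per length, and the other (Parg, Nudt5) was below the 3 Parp genes and Bst1.

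The order in Trpm2-/- kidneys was close to that in WT. Adprhl2 (21.5 ± 4.51 FPKM), Nudt9 (16.9 ± 5.04 FPKM), Parp3 (13.6 ± 2.13 FPKM) and Bst1 (10.5 ± 2.66 FPKM) again led, and the range of each of the first 3 overlapped with that of the next, although Adprhl2 was above Nudt9 and Parp3 above Bst1 within every Trpm2-/- mouse. Parp2 (5.96 ± 1.03 FPKM) and Parp1 (5.14 ± 1.17 FPKM) exchanged places, as did Nudt5 (4.39 ± 0.495 FPKM) and Parg (4.27 ± 0.466 FPKM), and both pairs overlapped. Cd38 was at 1.66 ± 1.14 FPKM and Sarm1 at 0.0753 ± 0.0376 FPKM. The SD was larger in Trpm2-/- than in WT kidneys for all 10 members, a difference that was not tested. The share of all genes with a larger SD was not counted. Over genes in general, chi-square per degree of freedom, a measure of spread between replicates, was 13.5 to 18.7 in WT and 32.1 to 36.7 in Trpm2-/- libraries. A larger spread was thus not particular to the members.

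The enzymes of poly(ADP-ribose) synthesis were described first, in CPM scaled with TMM-normalized library sizes. Parp1 lies on chromosome 1 at 180568924-180601254 of GRCm38, on the plus strand. Its level was 39.2, 36.5 and 32.0 CPM in WT kidneys and 37.4, 32.0 and 23.3 CPM in Trpm2-/- kidneys. The genotypes overlapped, with Trpm2-/- replicate 4 lowest of all. The log2 fold change of Trpm2-/- over WT was -0.22 (SE 0.182, adjusted p = 0.478, edgeR), with a 95% interval from -0.62 to 0.19, and it was -0.04 without replicate 4. Parp2, the second polymerase activated by DNA breaks (chromosome 14, 50807841-50821301), was at 20.7, 23.4 and 25.5 CPM in WT and 19.7, 26.4 and 27.4 CPM in Trpm2-/- kidneys. Both genotypes covered nearly the same range, and the log2 fold change was 0.08 (SE 0.170, adjusted p = 0.805, edgeR; interval -0.30 to 0.46).

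Parp3, which adds single ADP-ribose units near double-strand breaks, was the only member whose genotypes did not overlap. It lies on chromosome 9 at 106470322-106476949 on the minus strand. WT kidneys had 41.9, 41.7 and 47.4 CPM and Trpm2-/- kidneys 48.5, 66.7 and 56.4 CPM. Every Trpm2-/- mouse was above every WT mouse, with WT replicate 3 and Trpm2-/- replicate 1 close together. The log2 fold change was 0.39 (SE 0.147, interval 0.06 to 0.72), with an unadjusted p of 0.0253 and an adjusted p of 0.117 in edgeR's test. Genes whose genotypes did not overlap with Trpm2-/- above WT made up 16.7% of all genes tested, so 1 of 9 members is no more than this background. When single mice were left out, the log2 fold change of Parp3 stayed between 0.26 and 0.49. Its unadjusted p in edgeR's test rose to 0.0805 without WT replicate 1, 0.0878 without WT replicate 2 and 0.0910 without Trpm2-/- replicate 2. The adjusted p in the alternatives ran from 0.0603, without Trpm2-/- replicate 1, to 0.325, without WT replicate 2 (edgeR).

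**Figure D2:**
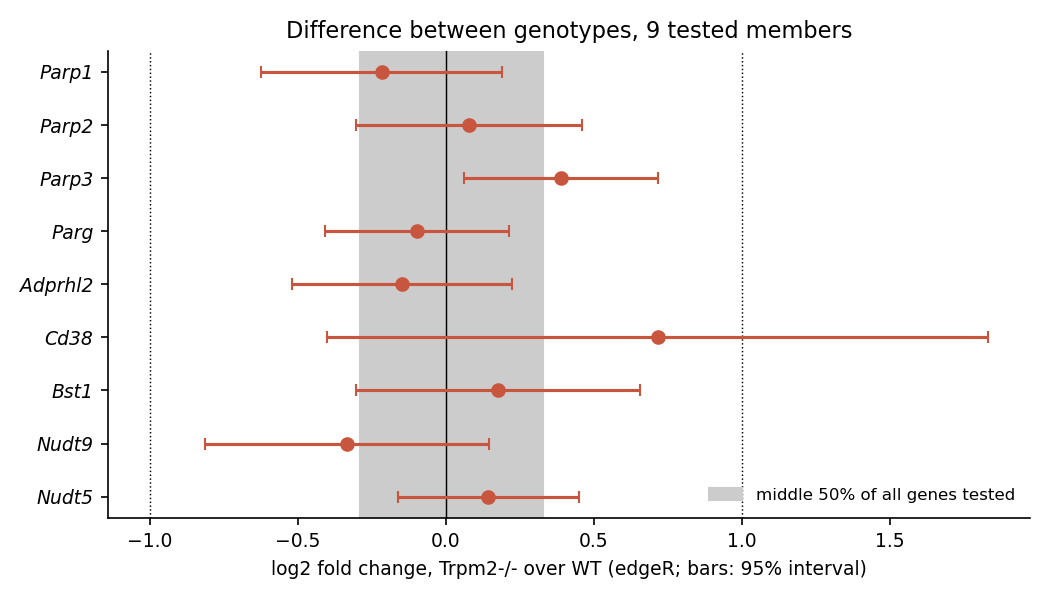
Log2 fold change of Trpm2-/- over WT for the 9 tested members, with 95% intervals from edgeR; the shaded band is the interquartile range of all 15816 genes tested, from -0.29 to 0.33, and dotted lines mark -1 and 1. Parp3 is the only member whose interval leaves out 0, and Cd38 has the widest interval.

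The 2 enzymes of poly(ADP-ribose) breakdown both lay slightly below 0 and overlapped between genotypes. Parg, the glycohydrolase that removes most ADP-ribose units from the chains (chromosome 14, 32201949-32297550, plus strand), was at 28.8, 28.9 and 32.1 CPM in WT and 29.6, 24.6 and 29.6 CPM in Trpm2-/- kidneys. Its log2 fold change was -0.10 (SE 0.139, adjusted p = 0.690, edgeR), with an interval from -0.41 to 0.21. The start of Parg lies 51 bases from that of Timm23, a subunit of the mitochondrial import channel on the opposite strand, whose log2 fold change was -0.43 (adjusted p = 0.137, edgeR). Parp2 and Nudt5 also start within 1000 bases of a gene on the opposite strand, 3 of 10 members in all, against 21.3% of 13567 tested protein-coding genes.

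Adprhl2 encodes ARH3, the hydrolase that cleaves ADP-ribose from serine, and lies on chromosome 4 at 126316047-126321703 on the minus strand. WT kidneys had 61.8, 73.5 and 65.6 CPM and Trpm2-/- kidneys 51.8, 75.4 and 54.1 CPM. Trpm2-/- replicates 1 and 4 were below all WT mice, while replicate 2 was the highest of the 6. The log2 fold change was -0.15 (SE 0.165, adjusted p = 0.603, edgeR), with an interval from -0.52 to 0.22, and it was -0.34 without Trpm2-/- replicate 2 (adjusted p = 0.133).

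Among the NAD glycohydrolases, Cd38 had the largest SE of all tested members and Sarm1 could not be tested. Cd38 encodes the ectoenzyme that converts NAD to ADP-ribose and cyclic ADP-ribose and is known mostly from leukocytes. It lies on chromosome 5 at 43868553-43912375, next to its paralog Bst1 at 43818885-43843986. Cd38 had 37, 90 and 86 counts in WT libraries and 91, 50 and 207 in Trpm2-/- libraries. In CPM these were 2.28, 5.78 and 5.28 in WT and 5.57, 3.41 and 12.9 in Trpm2-/- kidneys. The genotypes overlapped, and the highest value belonged to Trpm2-/- replicate 4. The log2 fold change was 0.72 (SE 0.498, adjusted p = 0.387, edgeR), with an interval from -0.40 to 1.83. It was 0.03 without Trpm2-/- replicate 4 and 1.05 without Trpm2-/- replicate 2. Replicate 4 is the library with the high podocyte and endothelial markers given above, and the part of those cells in its Cd38 level was not tested.

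Bst1, also called CD157, was at 43.4, 27.8 and 33.7 CPM in WT and 32.9, 51.3 and 34.3 CPM in Trpm2-/- kidneys. The highest mouse of each genotype was well above the other 2, and the genotypes overlapped, with a log2 fold change of 0.18 (SE 0.214, adjusted p = 0.637, edgeR; interval -0.30 to 0.66). It turned to -0.06 without Trpm2-/- replicate 2. Sarm1, the NAD hydrolase best known from degenerating axons (chromosome 11, 78472330-78497754, minus strand), was too low to test, with 1, 3 and 4 counts in WT and 10, 3 and 10 counts in Trpm2-/- libraries. Pooled over libraries these were 8 against 23 counts, a rate ratio of 3.15 with an interval of 1.36 to 8.16 that covers counting error only and not the spread between mice. Values in all libraries lay between 0.0617 and 0.623 CPM, from under the floor to a few times above it, and the genotypes overlapped.

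Leukocyte markers were given beside Cd38 and Bst1 because leukocytes express both. Macrophage and monocyte markers, led by Cd68, Cd14 and Csf1r, summed to 154 to 198 CPM in WT and to 251, 165 and 170 CPM in Trpm2-/- libraries. Of these 10 markers 2 were lower (C1qa and C1qc) and 0 higher, beside 7.28% and 4.74% of all genes tested. The 2 names were chosen after their values were seen, and without WT replicate 2, WT replicate 3, Trpm2-/- replicate 1 or Trpm2-/- replicate 2 the count of lower markers was 0 and without Trpm2-/- replicate 4 it was 1. The count of higher markers became 1 without Trpm2-/- replicate 2 (Lyz2) or replicate 4 (Cd14). Neutrophil markers summed to 3.02 to 13.2 CPM in WT and 6.21 to 12.5 CPM in Trpm2-/-. The 5 B cell and plasma cell markers summed to 1.73 to 2.71 CPM in WT and 1.74 to 2.12 CPM in Trpm2-/-, and Ms4a1 had no count in 5 of 6 libraries. None of 7 T and NK cell markers passed the filter, with a sum of 0.552 to 1.41 CPM in WT and 0.428 to 3.00 CPM in Trpm2-/-. The sums overlapped between genotypes for each of these leukocyte lists, and their part in the members' values was not tested.

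The enzymes that consume free ADP-ribose did not pass the test either. Nudt9, a mitochondrial ADP-ribose hydrolase to which the ligand-sensing end of TRPM2 is related, was at 49.9, 67.1 and 56.9 CPM in WT and 44.3, 60.8 and 33.0 CPM in Trpm2-/- kidneys. Trpm2-/- replicates 1 and 4 were below every WT mouse, and replicate 2 lay within the WT range. The log2 fold change was -0.33 (SE 0.214, adjusted p = 0.345, edgeR), with an interval from -0.81 to 0.15. It was -0.59 without Trpm2-/- replicate 2 (adjusted p = 0.0718) and -0.13 without Trpm2-/- replicate 4. Nudt9 lies on chromosome 5 at 104046306-104065379 on the plus strand, and 35.7% of its exon bases are shared with Gm43545, an unverified gene model on the opposite strand that had 0 to 1.56 CPM. The methods name the NEBNext Ultra II RNA kit, not its directional version, and no use of strand in counting is stated, so reads of such partners cannot be told apart.

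Nudt5, a hydrolase of ADP-ribose in cytosol and nucleus that can also make ATP from it, was at 29.2, 27.4 and 30.9 CPM in WT and 31.0, 29.6 and 36.1 CPM in Trpm2-/- kidneys. The genotypes overlapped, and the log2 fold change was 0.14 (SE 0.136, adjusted p = 0.537, edgeR; interval -0.16 to 0.45). Its exons (chromosome 2, 5845019-5871895, plus strand) share 17.9% of their bases with Cdc123, Gm13199 and Sec61a2 on the opposite strand. Of these, Sec61a2 was higher in Trpm2-/- kidneys, at 11.1 to 12.1 CPM against 5.77 to 6.54 CPM in WT (log2 fold change 0.93, adjusted p = 0.0163, edgeR).

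**Figure D3:**
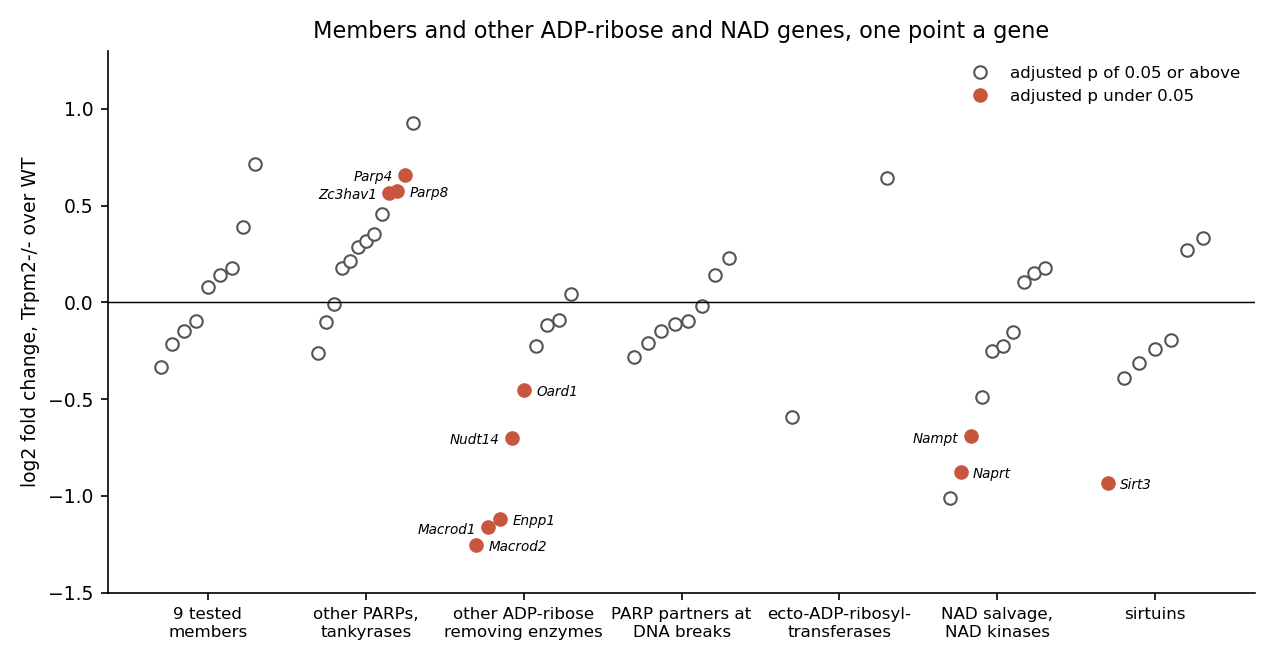
Log2 fold change of Trpm2-/- over WT for the tested members and for 6 lists of other ADP-ribose and NAD genes, 1 point per tested gene; filled points have an adjusted p under 0.05 in edgeR's test and carry their names. Filled points lie above 0 among the other PARPs and below 0 among the other ADP-ribose removing enzymes, NAD salvage genes and sirtuins.

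Genes around the members in the same pathways were read from the same fit, as counts and medians beside those of all genes (4.74% of all genes higher, 7.28% lower, median log2 fold change 0.02). Of 13 other PARP family genes and tankyrases, all tested, 3 were higher in Trpm2-/- kidneys and 0 lower, with a median log2 fold change of 0.32. Parp8, a mono-ADP-ribosyltransferase, was at 37.8, 30.3 and 30.1 CPM in WT and 46.2, 50.7 and 49.3 CPM in Trpm2-/- kidneys (log2 fold change 0.57, SE 0.137, adjusted p = 0.0272, edgeR). Parp4, the PARP of vault particles, was at 21.3, 20.8 and 23.2 CPM in WT and 37.3, 27.0 and 39.0 CPM in Trpm2-/- kidneys (log2 fold change 0.66, SE 0.166, adjusted p = 0.0326, edgeR). Zc3hav1, an antiviral RNA-binding PARP without catalytic activity, had a log2 fold change of 0.57 (SE 0.150, adjusted p = 0.0389, edgeR). All 3 were without overlap between genotypes. These calls were close to the threshold. Without WT replicate 1 or Trpm2-/- replicate 1 the only gene called higher was Parp8, without WT replicate 2 it was Tiparp, and without WT replicate 3 there was none. Without Trpm2-/- replicate 4, Zc3hav1 and Tiparp were called, and the limma fits on FPKM called 0. Tiparp, a mono-ADP-ribosyltransferase induced by the aryl hydrocarbon receptor, was named after its values were seen. It was at 43.2, 59.4 and 31.3 CPM in WT and 109, 87.3 and 58.5 CPM in Trpm2-/- kidneys, with overlap, and had the largest log2 fold change of the list, 0.93 (SE 0.266, adjusted p = 0.0508, edgeR).

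Among 10 other ADP-ribosyl hydrolases and ADP-ribose phosphatases, 9 were tested, 5 were lower in Trpm2-/- kidneys and 0 higher, with a median log2 fold change of -0.45. Macrod1, a mitochondrial hydrolase of mono-ADP-ribose on proteins, was at 25.2, 34.1 and 31.8 CPM in WT and 12.4, 15.5 and 12.8 CPM in Trpm2-/- kidneys. The genotypes were far apart relative to their spread (log2 fold change -1.16, SE 0.173, adjusted p = 0.00408, edgeR). Its relative Macrod2 was at 27.2, 38.4 and 40.4 CPM in WT and 19.1, 9.56 and 15.8 CPM in Trpm2-/- kidneys (log2 fold change -1.25, adjusted p = 0.0139, edgeR). Nudt14, a hydrolase of UDP-glucose and ADP-ribose, fell by 0.70 (adjusted p = 0.0112), and Enpp1, an ectoenzyme that cleaves nucleotides, fell by 1.12 on the log2 scale (adjusted p = 0.0128, edgeR). Oard1, which removes ADP-ribose from glutamate and was named after its values were seen, fell by 0.45 (adjusted p = 0.0478, edgeR). The count of lower genes was 1 without WT replicate 2 (Macrod1), 2 without WT replicate 3 and 2 in each limma fit on FPKM (Macrod1 and Nudt14). All 7 proximal tubule markers fell in the same libraries, and the part of that in these 5 genes was not tested.

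Of 9 partners of PARP1 at DNA breaks, such as the ligases and scaffolds of single-strand break repair, 8 were tested and 0 called, with a median log2 fold change of -0.10. Of 5 ecto-ADP-ribosyltransferases only 2 had enough reads, 0 were called, and the smallest p was that of Art5 (log2 fold change 0.64, adjusted p = 0.423, edgeR), at 0.493 to 1.57 CPM.

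NAD is the substrate of both routes to ADP-ribose. Of 12 genes for NAD salvage and NAD kinases, 10 were tested, 2 were lower in Trpm2-/- kidneys and 0 higher, with a median log2 fold change of -0.24. Nampt, the rate-limiting enzyme of NAD salvage from nicotinamide, was at 289, 242 and 269 CPM in WT and 161, 156 and 178 CPM in Trpm2-/- kidneys. All Trpm2-/- mice were below all WT mice (log2 fold change -0.69, SE 0.133, adjusted p = 0.0111, edgeR). Naprt, which starts NAD synthesis from nicotinic acid, was at 38.6, 51.7 and 57.1 CPM in WT and 23.2, 28.2 and 28.9 CPM in Trpm2-/- kidneys (log2 fold change -0.88, adjusted p = 0.0122, edgeR). Without WT replicate 3 the count of lower genes was 0, and without WT replicate 2 it was 1 (Nampt). Of 7 sirtuins, which also consume NAD, 1 was lower and 0 higher, with a median of -0.24. Sirt3, the main deacetylase of mitochondria, was at 39.7, 46.3 and 41.3 CPM in WT and 23.1, 21.2 and 22.3 CPM in Trpm2-/- kidneys (log2 fold change -0.93, SE 0.129, adjusted p = 0.00333, edgeR). Its genotypes were far apart, and it was called in each of the 17 alternatives. The fall in proximal tubule markers runs beside these calls as well, and its part was not tested.

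**Figure D4:**
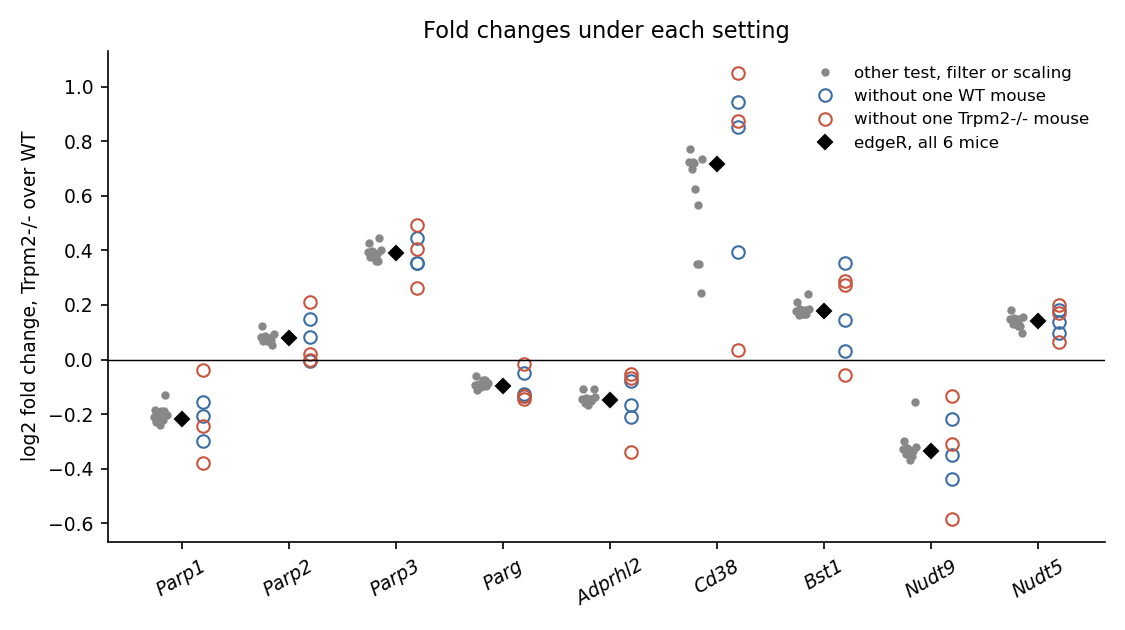
Log2 fold change of each tested member under the reported fit and 17 alternatives of normalization, filter, test and left-out mouse, 1 point per setting (diamond for the reported value, rings for fits without a WT mouse in blue or a Trpm2-/- mouse in red, grey for the rest). Cd38 spans 0.03 to 1.05, and Parp2 and Bst1 cross 0.

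No member had an adjusted p under 0.05 in any of the 17 alternatives. Signs differed from those reported for Parp2 and Bst1 when 1 mouse was left out, and for no other tested member. Nudt9 and Cd38 depended most on Trpm2-/- replicates 2 and 4, which lay on opposite sides of the Trpm2-/- mean of both genes.

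Of 14567 genes with a mean of at least 1 CPM, predicted Gm and Rik names were set aside. Of the rest, Ppp1r26 (Pearson r 0.983), Nova1 (0.980) and Omp (0.979) followed Parp3 most closely in log2 CPM over the 6 libraries. All 6 points share their library, and these are the highest values of many, given as a description. Ppp1r26 was at 5.27 to 5.77 CPM in WT and 6.18 to 8.12 CPM in Trpm2-/- kidneys. Levels were lower for Nova1, 0.555 to 1.17 CPM in WT and 1.65 to 4.57 CPM in Trpm2-/-. They were also lower for Omp, 1.03 to 1.29 CPM in WT and 1.35 to 3.62 CPM in Trpm2-/-.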

How the data were processed

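Kidney RNA of 3 WT and 3 Trpm2-/- mice was sequenced. For 54532 genes the authors deposited whole-number counts of reads per gene without normalization and FPKM values scaled by gene length and library total. The submitters' processing notes name HISAT2, StringTie and the build mm9, but 53499 of 54409 matched genes had the positions of GENCODE release M21 on GRCm38, which were used here. The methods name the NEBNext Ultra II RNA kit for the libraries. The counting tool and any strand setting are not given in the sources used here. Age and origin of the mice follow the labels and methods. Promoter sequences came from RefSeq.

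The test was run with edgeR 4.0.16 (R 4.3.3). filterByExpr at its defaults kept 15816 genes, TMM was applied, and genotype was tested by quasi-likelihood, two-sided, with Benjamini-Hochberg adjustment. Standard errors were the size of the log2 fold change over the root of F. Samples were taken as separate mice from their labels. Total counts were 14053307 to 17150089 per library. Chi-square per degree of freedom was 13.5 to 18.7 between WT replicates and 32.1 to 36.7 between Trpm2-/- replicates, so no library was a copy of another.

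Alternatives were DESeq2 1.42.0 (size factors, Wald test), upper-quartile normalization, no filter or at least 1 CPM in 3 libraries, limma-voom (limma 3.58.1), limma on log2(FPKM + 1) with a mean of at least 0.1 FPKM or no filter, limma on log2(FPKM + 0.1), counts without the mitochondrial genome, the replicate number as a block, and each mouse left out. The reported edgeR fit, the replicate block, the DESeq2 Wald test, limma-voom and filtered limma on log2(FPKM + 1) were run on simulated counts with 200 changed genes. The other alternatives were not.

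Members and lists were chosen with earlier results of these data known. The genes named are all members and Trpm2. Of each pathway list, up to 4 called genes by smallest p were named, or otherwise the gene with the smallest p. Of each marker list, up to 3 genes with the highest CPM were named. The 3 genes most like the member with the smallest p were named too, predicted Gm and Rik names left out. Neighbouring genes of members were named for their position. A few genes within these rules are not reported here.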

Additional observations from a re-analysis of the deposited data

How the results depend on the processing

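No tested member was called at an adjusted p under 0.05 in any alternative. The log2 fold change of Parp2 turned to -0.0041 without WT replicate 1 and to -0.00015 without Trpm2-/- replicate 4, and that of Bst1 to -0.057 without Trpm2-/- replicate 2. With single mice left out, the log2 fold changes ranged from -0.0041 to 0.21 for Parp2 and from -0.057 to 0.35 for Bst1. Sarm1 passed the filter and the threshold of the methods without Trpm2-/- replicate 2, making 1 member called higher there, and 0 otherwise when a mouse was left out.

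Over all genes, 750 were higher and 1152 lower at an adjusted p under 0.05, and 553 and 649 at the threshold of the methods. Without a filter on low counts, 1262 were higher, 1073 were higher at the threshold of the methods, and 10 marker genes were called higher and 17 lower, against 2 and 11. DESeq2 called 5 marker genes higher. On log2(FPKM + 1), 304 genes were higher and 754 lower (117 and 398 at the threshold of the methods), 0 pathway genes were higher and 5 lower, against 3 and 8, and 1 marker gene was higher and 6 lower. On log2(FPKM + 0.1), 338 genes were higher, with 0 pathway genes higher and 5 lower and 1 marker gene higher and 6 lower. On log2(FPKM + 1) without a filter, 105 genes were higher and 405 lower (110 and 390 at the threshold of the methods), 0 pathway genes were higher and 4 lower, and 0 marker genes were higher and 3 lower. The cause of these differences was not tested.

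With each mouse left out, 160 to 819 genes were higher and 470 to 1240 lower, 0 to 3 pathway genes higher and 3 to 9 lower, and 0 to 5 marker genes higher and 6 to 11 lower. Fits with 2 mice in a genotype have fewer samples.

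Replicate numbers 1 and 2 occur in both genotypes but mark different mice. Deviations from the genotype means correlated at 0.06 for number 1 and -0.01 for number 2. Between unlike numbers the correlations ran from -0.25 to 0.22. No pairing by number was seen in these values, which cannot exclude one. With the replicate block, 341 genes were higher and 661 lower, with 1 pathway gene higher and 5 lower, and 0 members. Number 3 occurs only in WT and number 4 only in Trpm2-/-. The genotype difference in the block fit therefore came from numbers 1 and 2 alone.

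With 3 mice a genotype, log2 differences in Cd38 anywhere from -0.40 to 1.83 were not told apart by the test, and Sarm1 had at most 10 counts in a library.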
